A study of Homo sapiens with 11 samples.

Results

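The miR-106a-363 cluster is a run of 6 miRNA hairpins on the X chromosome that copies, hairpin for hairpin in most places, the better-known miR-17-92 cluster. Of 2576 mature miRNAs in the count tables, 6 arms of this cluster were followed, listed by their names: hsa-miR-106a-5p, hsa-miR-18b-5p, hsa-miR-20b-5p, hsa-miR-20b-3p, hsa-miR-92a-2-5p and hsa-miR-363-3p. Small RNA was sequenced from SH-SY5Y, a single clonal neuroblastoma line derived from SK-N-SH, after 7 days of neuronal differentiation with all-trans retinoic acid (ATRA). In the co-treatment experiment, 3 libraries received 10 µM hydrogen peroxide (H2O2) together with ATRA for 7 days (AH) and 3 received ATRA without peroxide (AH-con). In the pre-treatment experiment, 3 libraries were exposed to 10 µM H2O2 for 72 h, which was withdrawn before ATRA was given for 7 days (HA), and 2 control libraries had ATRA alone (HA-con). Every library, control or treated, therefore comes from ATRA-differentiated cells of 1 tumour line, and the question was how each member responded to peroxide given during or before differentiation.

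A miRNA is cut from a hairpin, leaving a 5p and a 3p arm, and represses messenger RNAs that pair with its seed, bases 2 to 8. The miR-106a-363, miR-17-92 and miR-106b-25 clusters are paralogues, so that the same seeds are supplied from several chromosomes. Arms with the miR-17 seed are known to repress cell cycle inhibitors and regulators of cell death, among them CDKN1A and BCL2L11, and miR-17-92 is a classical target of MYC and MYCN, the latter an oncogene amplified in many neuroblastomas. Arms with the miR-92 seed, which include miR-363-3p, are known for promoting survival and proliferation in progenitor cells.

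The hairpins lie within 901 bases of the minus strand of the X chromosome, at chrX:133303408-133304308 in GRCh37, the build to which the reads had been mapped. In transcript order they are MIR106A at chrX:133304228-133304308, MIR18B at chrX:133304064-133304146, MIR20B at chrX:133303839-133303907, MIR19B2 at chrX:133303701-133303797, MIR92A2 at chrX:133303568-133303642 and MIR363 at chrX:133303408-133303482. All 6 sit inside exons of 3 of 3 annotated transcripts of the long non-coding RNA gene ENSG00000283638. The mature sequences of the 6 members are shown because their seeds set the families in which they are read below, with the seed in capitals (RefSeq, GRCh38.p14, 5′ to 3′).
hsa-miR-106a-5p: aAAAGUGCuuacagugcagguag
hsa-miR-20b-5p: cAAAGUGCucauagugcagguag
hsa-miR-18b-5p: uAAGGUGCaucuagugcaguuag
hsa-miR-363-3p: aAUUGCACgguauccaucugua
hsa-miR-20b-3p: aCUGUAGUaugggcacuuccag
hsa-miR-92a-2-5p: gGGUGGGGauuuguugcauuac

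Counterparts in miR-17-92 are shown because, for miR-106a-5p, miR-18b-5p and miR-20b-5p, the assignment of a read rests on 1 or 2 bases.
hsa-miR-17-5p: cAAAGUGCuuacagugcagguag
hsa-miR-20a-5p: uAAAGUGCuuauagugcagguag
hsa-miR-18a-5p: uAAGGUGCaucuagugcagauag
hsa-miR-92a-3p: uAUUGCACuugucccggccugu
Counted from 1 at the 5′ end, miR-106a-5p differs from miR-17-5p by C1A alone and miR-18b-5p from miR-18a-5p by A20U alone. Both miR-20b-5p differences from miR-20a-5p, U1C and U10C, are outside the seed. miR-363-3p shares its seed with miR-92a-3p but differs at 12 of 22 positions. Reads of miR-19b-3p and miR-92a-3p are not separable by cluster at all, since they are each made from a hairpin of both clusters.

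The members spanned a wide range of abundance, and together they took 0.149% to 0.350% of the counts in a library. Levels are given in CPM (counts scaled to a fixed library total) with edgeR's TMM factors, and since the arms are 22 or 23 bases long they were not divided by length. miR-20b-5p was the most abundant, at 898 to 2768 CPM over the 11 libraries with a median of 1823. miR-363-3p followed at 382 to 810 CPM, and was below miR-20b-5p in 11 of 11 libraries. miR-18b-5p lay at 5.17 to 18.9 CPM and miR-106a-5p at 1.88 to 20.5 CPM. These neighbours were not separated, as miR-18b-5p was the higher in 8 of 11 libraries. miR-20b-3p, the passenger arm of the miR-20b hairpin, had 0 to 12 counts, and miR-92a-2-5p had 0 to 11 counts with more than 3 counts in only 5 of 11 libraries. A count of 0 allows a level of up to 3 counts, or 0.342 to 0.508 CPM depending on the library, and both of the scarcest arms were close to the limit of detection.

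**Figure D1:**
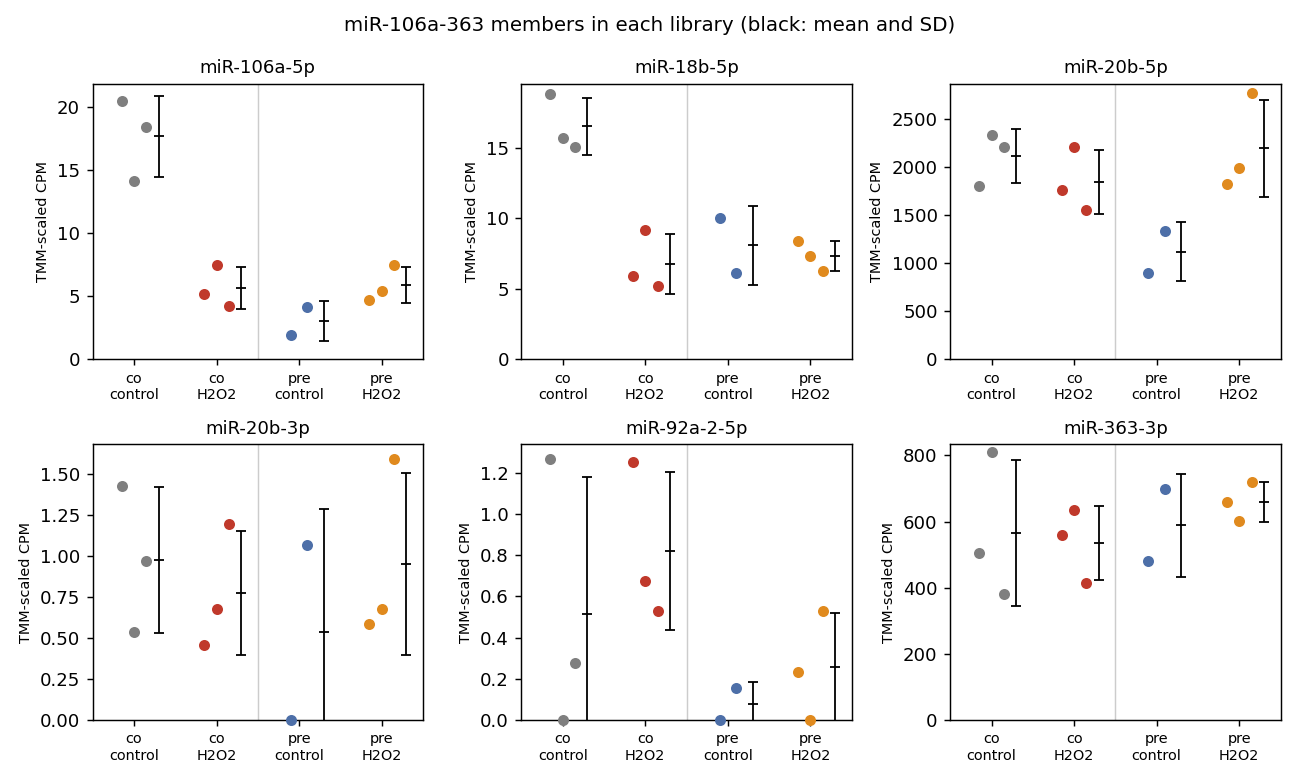
TMM-scaled CPM (vertical axes, linear) of the 6 members in each of the 11 libraries, grouped on the horizontal axis by experiment and treatment, with the mean and SD in black (SD bars are cut at 0). In co-treatment the 3 H2O2 libraries lie below the 3 controls for miR-106a-5p and miR-18b-5p, and in pre-treatment the 3 H2O2 libraries lie above both controls for miR-106a-5p and miR-20b-5p.

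The libraries held 5343953 to 8927582 counts. Of 6 neural marker miRNAs, 5 had more than 3 counts in every library, with a summed level of 1682 to 3226 CPM, while the neuronal miR-124-3p had 0 to 7 counts. Among markers of other cell types, the summed level was 1.88 to 8.75 CPM for 3 red blood cell miRNAs, 9.82 to 113 CPM for 5 white blood cell miRNAs, 71.4 to 199 CPM for 6 epithelial miRNAs and 1.48 to 6.94 CPM for 3 muscle miRNAs, of which miR-133a-3p was at 0 in every library. The liver miRNA miR-122-5p had 92.5 to 788 CPM. The highest white blood cell and epithelial sums both came from pre-treatment control 1, with 540 counts of miR-223-3p against 4 in control 2 and 1007 counts of miR-205-5p against 32. The pre-treatment controls correlated with each other at r = 0.933 (log2 CPM, across miRNAs), against 0.988 to 0.991 among the 3 pre-treated libraries. The experiments are described as triplicates. These 2 libraries are the pre-treatment controls analysed here, and the part of the difference between them in the results was not tested beyond leaving out each in turn.

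In co-treatment, 2 of the 6 members fell with H2O2 and none rose, though in bulk RNA fewer cells of a type and less RNA per cell cannot be told apart. miR-106a-5p and miR-18b-5p, the first and second hairpins of the cluster, were 3.17-fold and 2.47-fold lower, whereas the abundant members miR-20b-5p and miR-363-3p did not pass the test. Calls needed a false discovery rate (FDR, Benjamini-Hochberg) below 0.05 in edgeR's exact test and a log2 fold change (log2FC) of more than 0.6 in size. Of 790 miRNAs tested, 15.6% were called lower, 10.6% higher and 26.2% in either direction, and 22.9% were called by the quasi-likelihood test. Among the members 4 were tested and 2 of them were called lower, in edgeR's quasi-likelihood test and in DESeq2 as well. At an unadjusted p under 0.05 the count higher was still 0. For miR-20b-3p and miR-92a-2-5p the counts were too low for the filter. Markers moved as well. Of 5 neural markers tested 2 were called lower, miR-9-5p (−1.06, edgeR exact test FDR 0.0489) and miR-218-5p (−0.99, FDR 0.00792), and their median log2FC was −0.66, while the summed level, mostly miR-128-3p, was 2319 to 2963 CPM in the controls and 2334 to 2616 CPM with H2O2. The white blood cell markers summed to 19.8 to 21.7 and 9.82 to 17.4 CPM, with miR-142-5p called lower (−1.30, FDR 0.0142). Of the 4 tested, 2 had a log2FC above 0. miR-223-3p, not called, had 7, 4 and 3 counts without and 15, 4 and 35 with H2O2 (1.78, edgeR exact test FDR 0.0502). Red blood cell miR-486-5p had 1, 2 and 4 counts without and 17, 8 and 20 with H2O2 and was called higher (2.53, FDR 0.00165). miR-451a was not called (0.59, edgeR exact test FDR 0.404). miR-144-3p, too low to be tested, had 6, 2 and 4 counts without and 2, 1 and 0 with H2O2. The part of these markers in the result was not tested.

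miR-106a-5p had 129, 106 and 133 counts in the controls and 45, 44 and 32 with H2O2. The groups did not overlap in CPM, which was true of 41.6% of all miRNAs tested. Its mean went from 17.7 ± 3.22 to 5.61 ± 1.66 CPM (SD, n = 3 each), a log2FC of −1.66 with a standard error (SE) of 0.32 and an edgeR exact test FDR of 9.96e-05. By its seed it belongs to the miR-17 family.

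miR-18b-5p had 119, 118 and 109 counts in the controls and 52, 54 and 39 with H2O2. Again each treated library was below each control. The mean was 16.6 ± 2.03 CPM in the controls and 6.75 ± 2.11 CPM with H2O2 (SD, n = 3 each), a log2FC of −1.30 (SE 0.32, edgeR exact test FDR 0.00163). The miR-18 arms have a seed, and so a set of predicted targets, of their own.

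miR-20b-5p had 11357, 17477 and 15992 counts in the controls against 15436, 13030 and 11688 with H2O2. The groups overlapped, at 2115 ± 278 and 1840 ± 335 CPM (SD, n = 3 each). Its log2FC of −0.20 (SE 0.25, edgeR exact test FDR 0.616) was smaller than its error. It shares its seed with miR-106a-5p and was the far more abundant of the pair.

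miR-363-3p, the last hairpin in the transcript, had 3172, 6067 and 2761 counts in the controls and 4895, 3746 and 3111 with H2O2. Control 2 was the highest of the 6 libraries and control 3 the lowest in CPM. The log2FC was −0.08 (SE 0.30, edgeR exact test FDR 0.885), and it became 0.24 without control 2. miR-20b-3p had 9, 4 and 7 counts against 4, 4 and 9, and miR-92a-2-5p had 8, 0 and 2 against 11, 4 and 4. Nothing can be read from either at this depth.

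In pre-treatment no member was called in either direction by edgeR's exact test, where 15.7% of 868 miRNAs were, 5.53% higher and 10.1% lower. The count was also 0 in DESeq2 and in the quasi-likelihood test, which called 1.96% of all miRNAs, and 1 member, miR-20b-5p, had an unadjusted p under 0.05. Yet 4 of the 5 members tested had a positive log2FC, while the median over all miRNAs tested was −0.19. miR-106a-5p and miR-20b-5p, which share the miR-17 seed, had the highest values, both 0.97. Their groups did not overlap, as was the case for 46% of all miRNAs tested. Several marker sums were higher after H2O2 without overlap, at 3068 to 3226 against 1682 to 2323 CPM for the neural, 6.90 to 8.54 against 1.88 to 2.29 CPM for the red blood cell and 6.08 to 6.51 against 1.48 to 4.27 CPM for the muscle markers, and at 537 to 788 against 92.5 to 261 CPM for liver miR-122-5p. Among the single markers miR-138-5p (1.03), miR-451a (2.79), miR-1 (1.74) and miR-122-5p (1.88) were called higher by edgeR's exact test, whereas miR-223-3p (−4.87) and miR-205-5p (−4.54), both high in control 1, were called lower. Their part in the result was not tested.

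miR-20b-5p had 6691 and 8767 counts in the controls and 15585, 14646 and 20869 with H2O2. The lowest treated library was well above the higher control in CPM. The mean was 1117 ± 310 CPM in the controls (SD, n = 2) and 2192 ± 505 CPM with H2O2 (SD, n = 3), a log2FC of 0.97 with SE 0.32 that missed the threshold (edgeR exact test FDR 0.0811, quasi-likelihood FDR 0.112). It was called when library size replaced TMM (1.03, FDR 0.0359) and in a single fit of all 11 libraries (1.03, FDR 0.0264). The fits without either control are given below by log2FC only. Over 16 alternative fits its log2FC ranged from 0.63 to 1.52 and its FDR up to 0.571.

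miR-106a-5p had 14 and 27 counts in the controls against 40, 40 and 56 after H2O2. The groups did not overlap, and their order was the reverse of that in co-treatment. The mean was 3.00 ± 1.58 CPM in the controls (SD, n = 2) and 5.84 ± 1.42 CPM with H2O2 (SD, n = 3), a log2FC of 0.97 (SE 0.48, edgeR exact test FDR 0.256).

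miR-18b-5p had 75 and 40 counts in the controls and 72, 54 and 47 after H2O2, and its groups overlapped. Its log2FC was −0.14 (SE 0.37, edgeR exact test FDR 0.865), less than its error. miR-363-3p had 3569 and 4584 counts against 5636, 4431 and 5434, with a log2FC of 0.16 (SE 0.28, edgeR exact test FDR 0.801). For miR-20b-3p, with 0 and 7 counts against 5, 5 and 12, the log2FC of 0.84 had an SE of 1.19. miR-92a-2-5p, at 0 and 1 counts against 2, 0 and 4, was not tested.

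The pre-treatment values rested heavily on which control was kept. Without control 1, miR-20b-5p was the single member called (0.83, FDR 0.00937). Without control 2, leaving control 1 with its high blood and epithelial miRNAs, 4 members were called higher: miR-106a-5p at 1.86 (FDR 0.000802), miR-20b-5p at 1.52 (FDR 6.26e-07), miR-363-3p at 0.70 (FDR 0.00796) and miR-20b-3p, for which the remaining control was at 0 counts. Such edgeR fits assume that the lone control varies like the treated libraries, and 303 and 511 of all miRNAs were called in them.

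The response to H2O2 differed between the experiments for 2 of the 6 members. This was tested as the interaction of experiment and treatment in an edgeR quasi-likelihood fit of all 11 libraries, where 27.3% of 945 miRNAs passed an FDR of 0.05. miR-106a-5p responded by 2.67 log2 units more in pre-treatment than in co-treatment (SE 0.57, FDR 0.00436), and stayed past the threshold in each of the 15 alternative fits. The GC correction was not among these fits. For miR-20b-5p the difference was 1.20 (SE 0.39, FDR 0.0314). Its call was lost in 7 of 15 alternative fits, with FDR up to 0.166. Of these, 6 were fits without co-treatment control 3, co-treatment H2O2 library 1 or 3, pre-treatment control 1 or pre-treatment H2O2 library 2 or 3, where the difference was between 0.79 and 1.28. The other was the replicate block, with the FDR of 0.166. The differences of miR-18b-5p (1.16, FDR 0.102), miR-363-3p (0.25, FDR 0.690), miR-20b-3p (1.22, FDR 0.522) and miR-92a-2-5p (0.92, FDR 0.754) did not pass. Each experiment had its own controls, and the timing of H2O2 and any other difference between the experiments cannot be told apart.

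**Figure D2:**
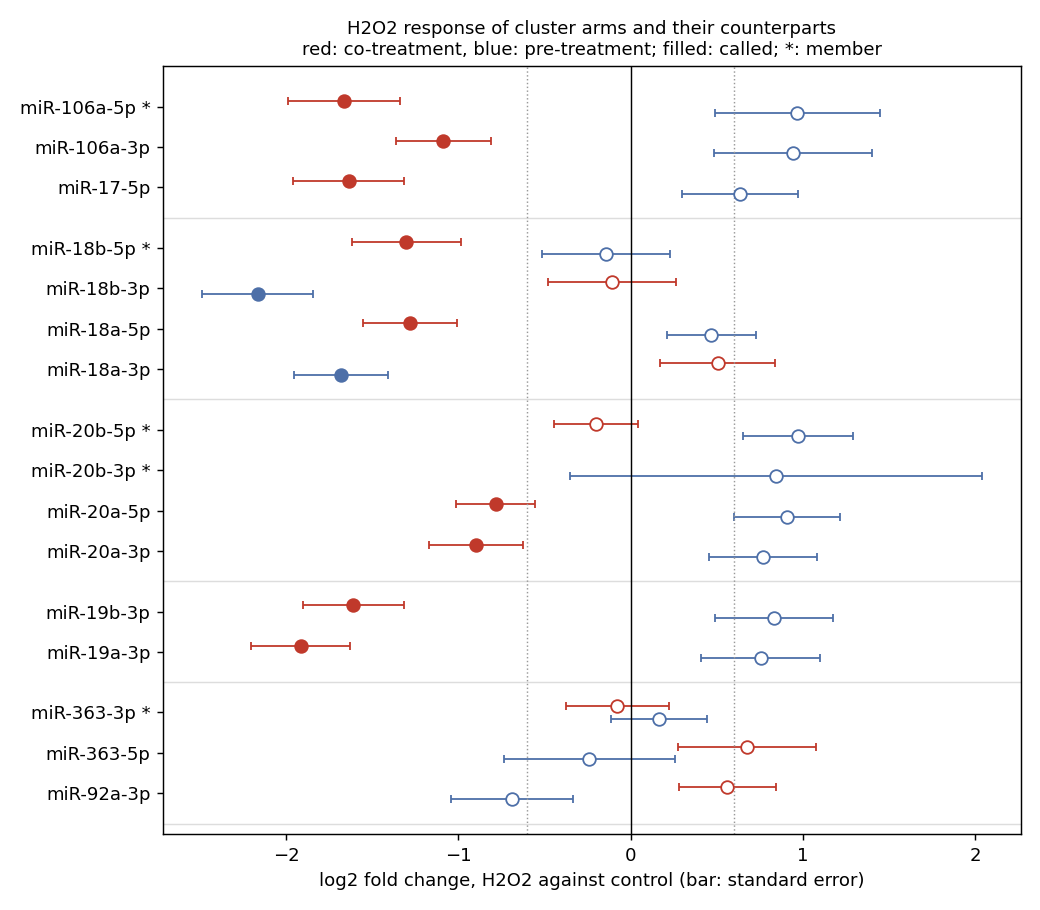
log2 fold change of H2O2 against control (horizontal axis, bars are standard errors) for cluster arms and their miR-17-92 counterparts, in co-treatment (red) and pre-treatment (blue), with called miRNAs filled, members starred and dotted lines at 0.6 in each direction. miR-106a-5p is filled at −1.66 in co-treatment and open at 0.97 in pre-treatment, and miR-363-3p lies near 0 in both.

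The opposite arms of the hairpins were read as well. miR-106a-3p, which was more abundant than miR-106a-5p in every library, had a log2FC below 0 in co-treatment and above 0 in pre-treatment, as did miR-106a-5p. Its counts were 438, 331 and 428 in the co-treatment controls and 222, 185 and 186 with H2O2, with no overlap and a log2FC of −1.09 (SE 0.28, edgeR exact test FDR 0.00232). In pre-treatment it had 69 and 145 against 224, 192 and 288 counts, a log2FC of 0.94 that was not called (FDR 0.244). The co-treatment call of hsa-miR-106a-3p was lost without control 1 (−0.90, FDR 0.0669) and in the single fit of all 11 libraries (FDR 0.0565). The interaction passed for miR-106a-3p as well, at 2.08 (SE 0.52, edgeR FDR 0.00947).

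For miR-18b, the 5p arm was called in co-treatment and the 3p arm in pre-treatment. miR-18b-3p had 46, 53 and 23 counts in the co-treatment controls and 50, 29 and 42 with H2O2, overlapping groups with a log2FC of −0.11 (edgeR exact test FDR 0.885). In pre-treatment it had 121 and 100 counts in the controls against 29, 23 and 30 after H2O2, a fall from 15.7 ± 0.70 CPM (SD, n = 2) to 3.50 ± 0.44 CPM (SD, n = 3). This log2FC of −2.17 (SE 0.32, edgeR exact test FDR 4.97e-05) was larger in size than that of any member in either experiment. It was lost by a small margin without pre-treatment H2O2 library 2 (−2.03, FDR 0.0508). Its interaction was −2.06 (SE 0.51, edgeR FDR 0.00933).

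The ratio of the miR-18b arms was lower with H2O2 in co-treatment and higher with H2O2 in pre-treatment, with no overlap of the groups in either. In co-treatment there were 2.59, 2.23 and 4.74 counts of miR-18b-5p per count of miR-18b-3p in the controls, and 1.04, 1.86 and 0.929 with H2O2. In pre-treatment the ratios were 0.620 and 0.400 in the controls, where the 3p arm was the more abundant, and 2.48, 2.35 and 1.57 after H2O2. The paralogue miR-18a had the same order of groups on far higher counts, at 10.8, 5.63 and 21.2 against 2.54, 3.80 and 2.35 in co-treatment and at 1.08 and 1.70 against 6.14, 5.46 and 6.34 in pre-treatment. hsa-miR-18a-3p, like miR-18b-3p, was called lower in pre-treatment (−1.68, edgeR exact test FDR 0.000448) and not in co-treatment (0.51, FDR 0.269), and its call was lost without H2O2 library 1 (FDR 0.0917), 2 (FDR 0.108) or 3 (FDR 0.0568). The arm ratios were chosen after the values of miR-18b-3p were seen and are given without a test. How often the arm ratios of other hairpins do not overlap was not computed. The 3p arms are richer in GC, at 59.1% against 43.5% for miR-18b and 56.5% against 43.5% for miR-18a. As given below, log2FC moved with GC content across miRNAs, and its part in these ratios was not tested.

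**Figure D3:**
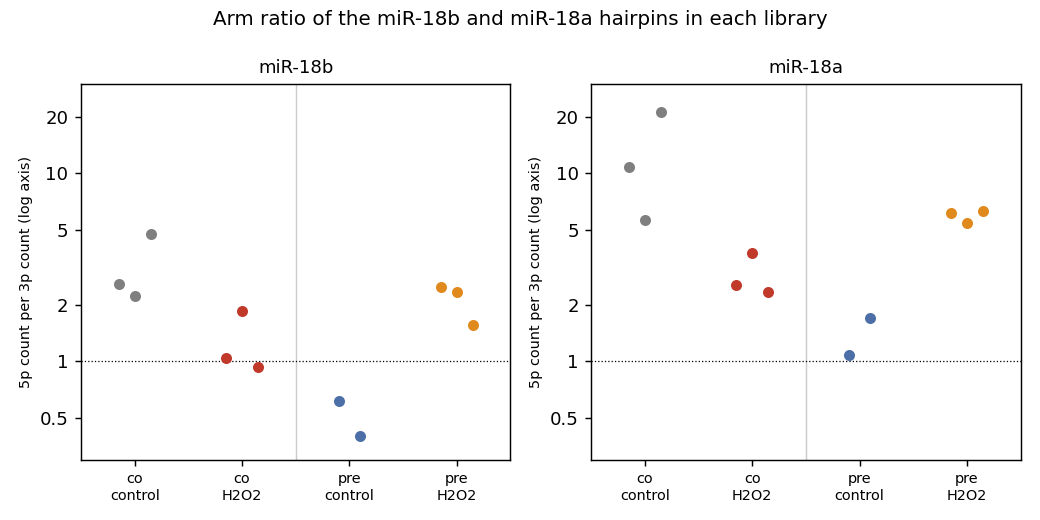
Counts of the 5p arm per count of the 3p arm (vertical log axes, dotted line at 1) in each library, for miR-18b on the left and miR-18a on the right, grouped by experiment and treatment. Both hairpins have lower ratios with H2O2 in co-treatment and higher ratios with H2O2 in pre-treatment, and for miR-18b the pre-treatment controls, at 0.620 and 0.400, lie below 1.

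Of the remaining arms, miR-363-5p had 15, 33 and 21 counts against 49, 19 and 50 in co-treatment (0.67, edgeR exact test FDR 0.213) and 26 and 16 against 20, 12 and 27 in pre-treatment (−0.24, FDR 0.824). miR-19b-2-5p had at most 2 counts in a library. The shared product miR-19b-3p was called lower in co-treatment (−1.61, FDR 1.54e-05) and not in pre-treatment (0.83, FDR 0.207), and its interaction was 2.49 (SE 0.47, edgeR FDR 0.00261). The shared miR-92a-3p passed in neither, with 0.56 (FDR 0.150) and −0.69 (FDR 0.266). For both, the cluster of origin cannot be told apart.

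The members were a small part of their seed families. Among 6 arms with the miR-17 seed, miR-93-5p of the miR-106b-25 cluster made up 72.4% to 92.4% of the counts in a library, miR-20b-5p 0.899% to 1.72% and miR-106a-5p 0.00228% to 0.0187%. Among the miR-92 seed arms miR-25-3p made up 92.7% to 98.2% and miR-363-3p 0.423% to 1.13%. These shares depend on how miR-92a-3p reads with several matches were counted, which is not given in the sources used here. Of the 2 arms with the miR-18 seed, miR-18b-5p gave 1.41% to 3.61% and miR-18a-5p the rest.

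miR-106a-5p counted 0.414%, 0.557% and 0.279% of miR-17-5p in the co-treatment controls and 0.403%, 0.358% and 0.363% with H2O2. In pre-treatment it was 0.327% and 0.393% in the controls and 0.419%, 0.467% and 0.496% after H2O2, without overlap. The log2 ratio changed by −0.09 in co-treatment and by 0.33 in pre-treatment (exact two-sided permutation p = 0.7 and p = 0.1, the latter the smallest that 3 against 3 or 2 against 3 libraries allow). Over the 14 ratios tested the smallest adjusted p was 0.467, so no ratio change passed. miR-17-5p itself had a log2FC of −1.64 in co-treatment, where it was called, and of 0.64 in pre-treatment, and its reads differ from those of miR-106a-5p by the terminal base alone. How reads with a mismatch or with several matches were treated is not given in the sources used here, and the part of miR-17-5p reads in the miR-106a-5p counts was not tested.

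miR-18b-5p stood at 1.64%, 1.93% and 1.52% of miR-18a-5p in the co-treatment controls and at 1.52%, 1.78% and 1.64% with H2O2, overlapping groups. The pre-treatment values were 3.74% and 1.92% in the controls and 2.05%, 1.98% and 1.43% after H2O2, where control 1 stood apart. The log2 ratio changed by −0.03 and −0.58 (exact permutation p = 1.0 and p = 0.3). As with miR-106a-5p, the part of reads of the counterpart was not tested.

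miR-20b-5p counted 8.51%, 11.8% and 16.1% of miR-20a-5p in the co-treatment controls and 16.8%, 17.9% and 17.4% with H2O2. The groups did not overlap, and the log2 ratio differed by 0.56 at the smallest p the design allows (exact permutation p = 0.1, adjusted 0.467). miR-20a-5p itself was called lower in co-treatment (−0.78, edgeR exact test FDR 0.0238). In pre-treatment the share was 16.1% and 16.2% in the controls and 16.1%, 17.1% and 17.3% after H2O2, a change of 0.06 (exact permutation p = 0.3).

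miR-92a-3p is made from a hairpin of both clusters, and how reads with several matches were counted is not given in the sources used here. The part of this in its count was not tested. By counts, miR-363-3p was the only member of similar abundance to its counterpart. It stood at 59.3%, 66.6% and 63.7% of miR-92a-3p in the co-treatment controls and at 37.7%, 58.2% and 30.4% with H2O2, without overlap (−0.64, exact permutation p = 0.1, adjusted 0.467). In pre-treatment the share was 24.8% and 75.8% in the controls against 79.9%, 74.7% and 70.2% after H2O2, and control 1 alone was far from the rest (0.79, exact permutation p = 0.3). The remaining ratios, of miR-20b-3p to miR-20a-3p and to miR-20b-5p and of miR-92a-2-5p to miR-92a-1-5p, had overlapping groups in both experiments.

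**Figure D4:**
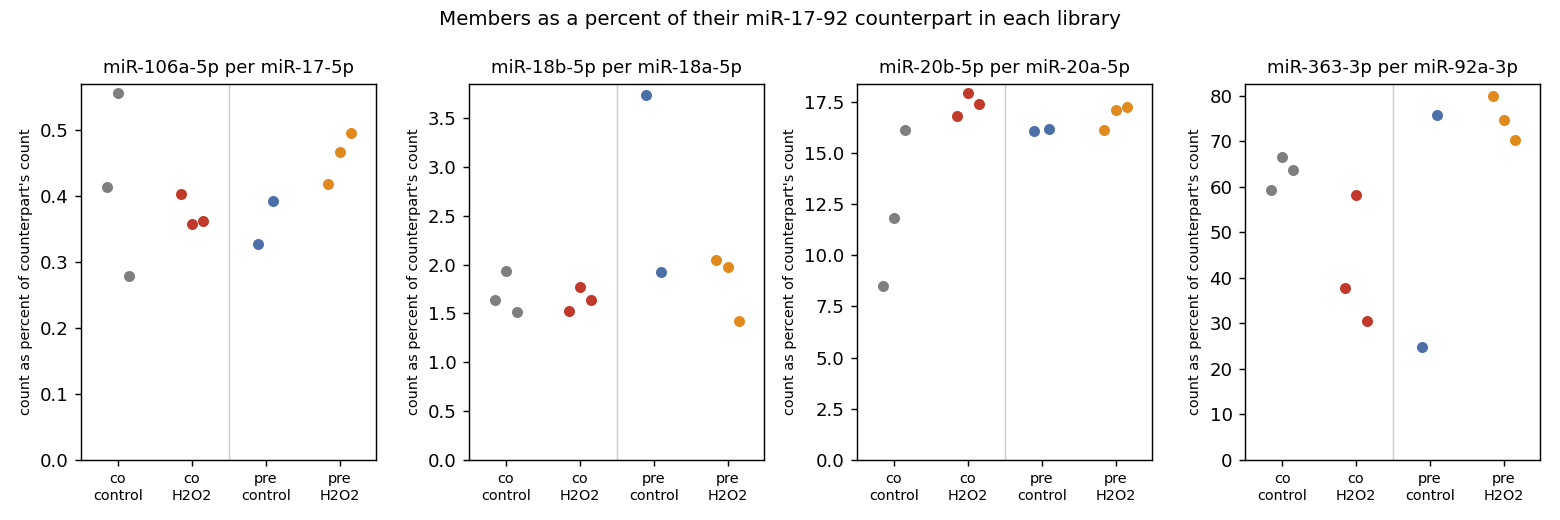
Count of each member as a percent of the count of its miR-17-92 counterpart (vertical axes, linear from 0) in each library, grouped by experiment and treatment. The counterpart miR-92a-3p is also made from a hairpin of the miR-106a-363 cluster. miR-20b-5p is at 8.51% to 16.1% of miR-20a-5p in the co-treatment controls and at 16.8% to 17.9% with H2O2, and miR-363-3p is at 24.8% of miR-92a-3p in pre-treatment control 1 against 70.2% to 79.9% in the other pre-treatment libraries.

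The paralogous clusters were read as lists. Of all miRNAs tested, 15.6% were called lower and 10.6% higher in co-treatment, and 10.1% lower and 5.53% higher in pre-treatment. Of 10 listed arms of miR-17-92, all tested, 6 were called lower and none higher in co-treatment, with a median log2FC of −0.91 against −0.04 over all miRNAs. In pre-treatment 1 of them, miR-18a-3p, was called lower and none higher (the count higher was 1 at an unadjusted p under 0.05, and 0 in the quasi-likelihood test and in DESeq2), with a median of 0.70 against −0.19. Of 6 arms of miR-106b-25, co-treatment called 2 higher (miR-106b-3p at 0.96 and miR-25-5p at 1.13) and 1 lower (miR-106b-5p at −2.03), and pre-treatment called 2 lower (miR-106b-3p at −1.21 and miR-25-5p at −1.36, neither by the quasi-likelihood test). The 4 members tested in co-treatment had a median of −0.75 and the 5 tested in pre-treatment a median of 0.84.

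Over the 11 libraries, the miRNAs whose log2 CPM, centred within each experiment, most resembled the mean of the 4 members tested in both experiments were sought among 400 other miRNAs with a mean of at least 10 CPM. The nearest were miR-20a-3p (r = 0.98), miR-19b-1-5p (0.95), miR-15a-5p (0.94), miR-18a-5p (0.93) and miR-20a-5p (0.93), so that 4 of the 5 come from miR-17-92. Pairs of single miRNAs were read as well, a measure that cannot be set against likeness to a mean. On the same centred scale, miR-106a-5p correlated at 0.66 with both miR-20b-5p and miR-18b-5p, at 0.24 with miR-363-3p and at 0.95 with miR-17-5p. miR-18b-5p correlated at 0.04 with miR-20b-5p, at 0.03 with miR-363-3p and at 0.83 with miR-18a-5p. For miR-20b-5p the value was 0.50 with miR-363-3p and 0.80 with miR-20a-5p, and for miR-363-3p it was 0.05 with miR-92a-3p. The points are the same 11 libraries throughout, and share their depth and scaling.

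Base composition moved with the response across miRNAs. The log2FC correlated with the GC content of the mature sequence at r = 0.56 over 700 miRNAs in co-treatment and at −0.41 over 768 in pre-treatment, across miRNAs, which are not replicates. The members lie at 40.9% to 50.0% GC, with 43.5% for both miR-106a-5p and miR-18b-5p, whereas miR-18b-3p has 59.1%. After a correction for GC within each library, miR-106a-5p remained called in co-treatment (−1.24, edgeR quasi-likelihood FDR 0.0448) and miR-18b-5p did not (−0.88, FDR 0.0882). miR-363-3p turned to 0.49 (FDR 0.307). In pre-treatment the correction gave 0.83 for miR-20b-5p (FDR 0.0830) and −0.24 for miR-363-3p, the members with enough CPM for it. Among all miRNAs with at least 10 CPM and a known sequence, the correction took the co-treatment calls from 123 to 24 of 363. In pre-treatment it took them from 60 to 41 of 348.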

How the data were processed

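Total RNA of the 11 libraries had been made into small RNA libraries with the QIAseq miRNA kit and sequenced on a NextSeq 500. The authors trimmed adapters and low-quality bases with Cutadapt 2.10, mapped reads to hg19 with Bowtie2 2.4.1 then assigned them to miRNAs through htseq-count 0.7.2. Raw counts were deposited in 1 table per experiment, each with 2576 mature miRNAs. The miRNA annotation release, the treatment of reads with several matches and the use of molecular identifiers are not given in the sources used here. Tables of the authors' own fold changes and p-values were not used.

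Counts were analysed with edgeR 4.0.16 in R 4.3.3. Following the study's methods, miRNAs had to exceed the CPM of 5 counts in the smallest library, here in at least 3 libraries (co-treatment) or 2 (pre-treatment and the joint fit), and each treated group was compared with its own controls by the exact test, with calls at FDR below 0.05 and absolute log2FC above 0.6. TMM scaling was added here, since those methods name scaling to sequencing depth, which is the library-size alternative. Each SE is the size of the log2FC over the square root of the quasi-likelihood F. The interaction was fitted by quasi-likelihood over all 11 libraries. Ratios within a library were tested by exact two-sided permutation of log2 ratios with 0.5 added to each count. The GC correction fitted log2 CPM against mature GC content by lowess (span 0.5) for miRNAs with a mean of at least 10 CPM, of which 88.8% and 88.1% had a sequence. The exact tests and the interaction fit were checked on simulated counts. The libraries are described as biological replicates, though nothing in the labels ties them to separate cultures, and the p-values measure the spread between these libraries. For a count of 0 only counting error was considered, and 3 counts were taken as the limit that it allows.

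The members, the gene lists and the tests were chosen with earlier results of these data known. Named miRNAs were the 6 members, the other arms of their hairpins, the arms of miR-17-92 and miR-106b-25 and of the members' seed families, the X-chromosome neighbours, 5 miRNAs by likeness and marker miRNAs of 6 cell types. Mature sequences came from RefSeq (GRCh38.p14) and hairpin positions from GENCODE on GRCh37. For hsa-miR-106a-3p no sequence was used. Alternatives were the quasi-likelihood test, DESeq2 1.42.0, other scalings and filters, no log2FC threshold, a joint fit, a replicate block, the GC correction and leaving out each library. A fit of the miRNAs with a GC value but no correction was added after the data were seen.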

Additional observations from a re-analysis of the deposited data

Results flagged for a closer look

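The response to H2O2 differed between pre-treatment and co-treatment, by the interaction term of an edgeR quasi-likelihood fit of all 11 libraries (given as pre-treatment minus co-treatment on the log2 scale), for 2 members and 3 arms that are not members. Those of the members were 2.67 for hsa-miR-106a-5p (SE 0.57, FDR 0.00436) and 1.20 for hsa-miR-20b-5p (SE 0.39, FDR 0.0314), the latter lost in 7 of 15 alternative fits (FDR up to 0.166). Those of the further arms were 2.08 for hsa-miR-106a-3p (SE 0.52, FDR 0.00947), −2.06 for hsa-miR-18b-3p (SE 0.51, FDR 0.00933) and 2.49 for hsa-miR-19b-3p (SE 0.47, FDR 0.00261). Of 945 miRNAs 27.3% passed in the same fit. In pre-treatment these responses rest on 2 controls that correlated with each other at r = 0.933.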

How the results depend on the processing

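In co-treatment, 2 members were called in the main setting, under the quasi-likelihood test, DESeq2, the other scalings and filters, the joint fit and the replicate block, and without any 1 library (2 to 2). The GC correction left 1, and the replicate block with GC correction left 0 members and 0 of 363 miRNAs. In pre-treatment the count was 0 except for 1 with library size in place of TMM and 1 in the joint fit, both miR-20b-5p, and it ranged from 0 to 4 when 1 library was left out. The count of members whose responses differed was 2, and 1 (miR-106a-5p) with the replicate block, where miR-20b-5p gave 1.00 (FDR 0.166), and 1 to 3 without 1 library. Over all miRNAs, co-treatment called 207, against 84 in the joint fit and 107 to 276 without 1 library. Pre-treatment called 136, against 17 by the quasi-likelihood test, 61 without the low-count filter and 11 to 18 without 1 H2O2 library. The interaction called 258, against 164 to 444 without 1 library. Pre-treatment calls by the GC correction were 41 against 60 without it. The interaction was not run with the GC correction. The cause of these differences was not tested.

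Deviations of same-numbered libraries from their group mean correlated at 0.04, −0.16 and −0.16 in co-treatment and at 0.22 and −0.05 in pre-treatment. Whether replicate numbers pair the libraries cannot be read from these values. In groups this small the deviations depend on each other, and those of the 2 pre-treatment controls are exact opposites. A replicate block took the quasi-likelihood calls from 181 to 111 in co-treatment, from 17 to 15 in pre-treatment and from 258 to 115 for the interaction.

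No called member changed sign. Among values that did not pass, signs turned for miR-363-3p in co-treatment (0.037 with library size, 0.092 with the filter in all libraries, 0.49 with GC correction, 0.56 with GC correction and replicate block, −0.19 to 0.24 without 1 library) and in pre-treatment (−0.24 with GC correction, −0.29 with the block as well), and for miR-18b-5p in pre-treatment (0.017 without the low-count filter, −0.22 to 0.38 without 1 library). Without 1 library, miR-20b-3p in pre-treatment ranged from −0.055 to 5.96, a value that depends on the prior count since the control kept was at 0. The difference of responses ranged from −0.13 to 0.49 for miR-363-3p and from −0.17 to 3.31 for miR-92a-2-5p, which gave −0.46 with the replicate block. Without 1 library the log2 ratio changes ranged in co-treatment from −0.35 to 0.15 for miR-106a-5p to miR-17-5p, −0.11 to 0.067 for miR-18b-5p to miR-18a-5p and −0.32 to 0.55 for miR-20b-5p to miR-20b-3p, and in pre-treatment from −0.88 to 2.85 for miR-20b-3p to miR-20a-3p, −0.019 to 1.59 for miR-363-3p to miR-92a-3p and −2.52 to 0.99 for miR-20b-5p to miR-20b-3p. At 0 to 12 counts a library, miR-20b-3p and miR-92a-2-5p were limited by depth.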

Other observations

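Several other miRNAs are encoded near the cluster on the long arm of the X chromosome, among them miR-424 and miR-503, whose family is known for arresting the cell cycle, with miR-542 and miR-450. Of 7 listed arms 6 were tested, and in co-treatment 3 were called lower by edgeR's exact test (miR-424-5p at −1.51, FDR 0.000221, miR-542-3p at −1.72, FDR 1.54e-05, and miR-450b-5p at −1.0, FDR 0.00592) and none higher, at an unadjusted p under 0.05 included, where 15.6% of all miRNAs were called lower. miR-424-5p had 546, 692 and 983 counts in the controls against 320, 301 and 173 with H2O2, without overlap, as was the case for 41.6% of all miRNAs. miR-542-3p had 1070, 1346 and 2587 counts against 710, 418 and 476, also without overlap. In pre-treatment 0 of the 6 were called by the exact test, 0 in the quasi-likelihood test and in DESeq2, and 0 had an unadjusted p under 0.05, and 6 of 6 had a log2FC above 0, from 0.05 to 1.33. The interaction with the experiment passed for miR-424-5p (2.14, FDR 0.00671), miR-542-3p (2.53, FDR 0.00336) and miR-450b-5p (1.32, FDR 0.0331). miR-450a-5p had at most 2 counts.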
